A study of Mus musculus with 28 samples.

Results

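The effect of KEAP1 loss was measured in 3LL cells kept in culture, apart from any host. The comparison takes the 4 libraries of KEAP1-KO cells against the 4 libraries of WT cells, 8 of the 28 libraries of the series, and covers the 18509 rows of the expression table that carry a gene symbol, out of 43143 rows. 3LL, or Lewis lung carcinoma, is a mouse lung cancer line that grows in immunocompetent C57BL/6 mice. WT cells were the parental line with genotype wild-type. KEAP1-KO cells (genotype Keap1-KO) carried a homozygous frameshift insertion in Keap1 exon 2, made with CRISPR-Cas9 and a plasmid-borne guide RNA, and came from a single-colony step. The study made 2 such KEAP1-KO lines, and the labels do not say which was sequenced. DKO cells (genotype Keap1-Nrf2-DKO) were made from KEAP1-KO cells by a second edit in the Nrf2 gene and a second single-colony step, and their 4 libraries are set beside the comparison. The tumors of Experiment A (4 WT and 4 KEAP1-KO), also set beside it, grew from WT and KEAP1-KO cells under the skin of opposite flanks of 6-week-old male albino C57BL/6 mice. The culture medium was RPMI 1640 with fetal bovine serum and penicillin-streptomycin. The edited cells had also been enriched with puromycin after transfection, a step not described for WT cells. Because the KEAP1-KO lines were cloned, by the study's account, and WT cells are a parental population, loss of KEAP1 and differences between a clone and its parent cannot be told apart in the comparison. The labels do not say whether the 4 libraries of a group came from separate cultures, so p-values measure the spread between these libraries, which may be technical.

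KEAP1 is the substrate adaptor of a CUL3 ubiquitin ligase that holds the transcription factor NRF2 (gene Nfe2l2) at a low level in unstressed cells. When KEAP1 is lost or its reactive cysteines are modified, NRF2 escapes degradation, enters the nucleus, pairs with a small MAF protein and binds antioxidant response elements in its target genes. Those targets are known for glutathione synthesis and transfer, the thioredoxin system, quinone and aldehyde reduction, NADPH supply and the handling of iron and heme, and inactivating KEAP1 mutations are recurrent in human lung adenocarcinoma.

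The antioxidant response element overlaps the AP-1 site in its strong form. The letter patterns TGANTCAGC and TGACNNNGC were searched on both strands in RefSeq promoter windows (GRCm38.p6). Only the 250 bases before each gene start were searched. TGACTCAGC matches both patterns. The following stretches belong to genes that rose by more than 1 on the log2 scale in KEAP1-KO cells and whose roles are taken up below, and they are shown because each holds the first pattern, in capitals, in the gene's own 5′ to 3′ orientation.
Osgin1 (chr8:119437018-119437086, plus strand): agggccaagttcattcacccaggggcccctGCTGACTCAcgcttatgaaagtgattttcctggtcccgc
Srxn1 (chr2:152105449-152105517, plus strand): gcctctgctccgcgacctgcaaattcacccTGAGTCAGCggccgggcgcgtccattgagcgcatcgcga
Gstp1 (chr19:4037948-4038016, minus strand): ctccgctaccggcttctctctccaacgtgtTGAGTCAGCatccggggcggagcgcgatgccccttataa
Prdx1 (chr4:116685436-116685504, plus strand): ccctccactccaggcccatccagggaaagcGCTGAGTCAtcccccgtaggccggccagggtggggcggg
Cd68 (chr11:69666281-69666349, minus strand): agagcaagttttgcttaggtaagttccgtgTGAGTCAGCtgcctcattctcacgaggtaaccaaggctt
The capitals read GCTGAGTCA or GCTGACTCA where the pattern lies on the opposite strand. The first base of the motif lies 99 bases before the gene start in Osgin1, 45 in Srxn1, 74 in Gstp1, 133 in Prdx1 and 149 in Cd68. Of 8652 tested genes with a window, 1.17% held TGANTCAGC, and of all 32851 windows 1.02% did. The share was 3.86% (16 of 414) among genes called higher by more than 1 and 2.02% (4 of 198) among those called lower by more than 1. The looser TGACNNNGC was held by 13.7% of the tested genes, 18.6% of the genes higher by more than 1 and 12.6% of the genes lower by more than 1. These are counts of letters in a short window, given as a description and not as binding sites.

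Recovered read totals were 5808967 to 6149611 in WT cells and 6466469 to 7524297 in KEAP1-KO cells, so each KEAP1-KO library was deeper than each WT library. In a principal component analysis of the 12 cell libraries, the first component (18.4% of the variance) put WT cells at -67.84 to -61.6 and KEAP1-KO cells at 21.76 to 29.56, with DKO cells at 36.1 to 42.22. The second component (13.5%) set KEAP1-KO cells (-55.32 to -44.95) against DKO cells (38.83 to 53.1). The 18S ribosomal RNA row Rn18s was lower in KEAP1-KO cells (903, 3259, 2760 and 3289 normalized counts) than in WT cells (16870, 11771, 15016 and 9829), a difference in residual ribosomal RNA whose part in the results below was not tested. Of 23 leukocyte markers 6 passed the filter on low values, and Ptprc, which encodes CD45, was at 0 to 1.08 normalized counts in WT cells and 0 to 1.89 in KEAP1-KO cells. Alb, a liver marker checked because the labels' extraction text names liver, was at 0 in 7 of the 8 libraries. The keratin genes Krt8 and Krt18 of simple epithelium were present, whereas Nkx2-1, Epcam and the surfactant genes were not analysed here. For some genes the row with the symbol held few counts, such as Vim of intermediate filaments at 10.3 to 35.4 in WT cells, so a row that did not pass says little about such a gene.

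Keap1 mRNA, the edited gene, was lower in every KEAP1-KO library. Its normalized counts were 705, 649, 751 and 680 in WT cells and 197, 183, 197 and 179 in KEAP1-KO cells, a 3.68-fold lower mean. On the scale of the deposited values, log2(normalized count + 4), the difference was -1.86 ± 0.07 (SE, n = 4 per group, adjusted p = 2.2e-09 by limma). DKO cells, which carry the same Keap1 edit, had 153 to 173. A frameshift need not remove a transcript, so the remaining Keap1 reads do not bear on the protein. The Nfe2l2 row, for NRF2 itself, carries the ID of a processed transcript and held few counts. It had 44.5, 30.2, 36.8 and 33.3 in WT cells and 21.4, 21.0, 32.1 and 25.1 in KEAP1-KO cells. Its difference of -0.48 ± 0.21 did not pass the test (adjusted p = 0.17), which says little about total Nfe2l2 mRNA. Of 15 tested rows of NRF2 and its regulators 4 rose (26.7%), 1 (Keap1) fell and 10 did not pass, with a median of 0.0. Among the rises, the NRF2 partner gene Mafg was higher by 0.91 ± 0.21 and the competing repressor gene Bach1 by 1.38 ± 0.30. With a mean of at least 25 normalized counts required, 2 rises were called. Below, differences are KEAP1-KO minus WT on this log2 scale with the SE of the fit. The added 4 understates changes in low genes. Many symbol rows, such as those of Slc7a11 and Txnrd1, carry the ID of a retained-intron or other transcript. Whether they hold the total of the gene is not known.

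Of 13445 rows with a symbol that passed the filter (5 or more normalized counts in 4 or more of 12 cell libraries), 1702 (12.7%) were called higher and 1541 (11.5%) lower at an adjusted p below 0.05, against 15.5% called in either direction over all 29744 rows tested. The median difference over all rows was 0.018. Differences of at least 1 were found in 599 higher rows (4.46%) and 292 lower rows (2.17%). In 3068 of the 3243 called rows the 4 KEAP1-KO libraries did not overlap the 4 WT libraries, and 28.6% of all tested rows with a symbol did not overlap. The median size of a called rise was 0.73 and that of a called fall 0.56.

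**Figure D1:**
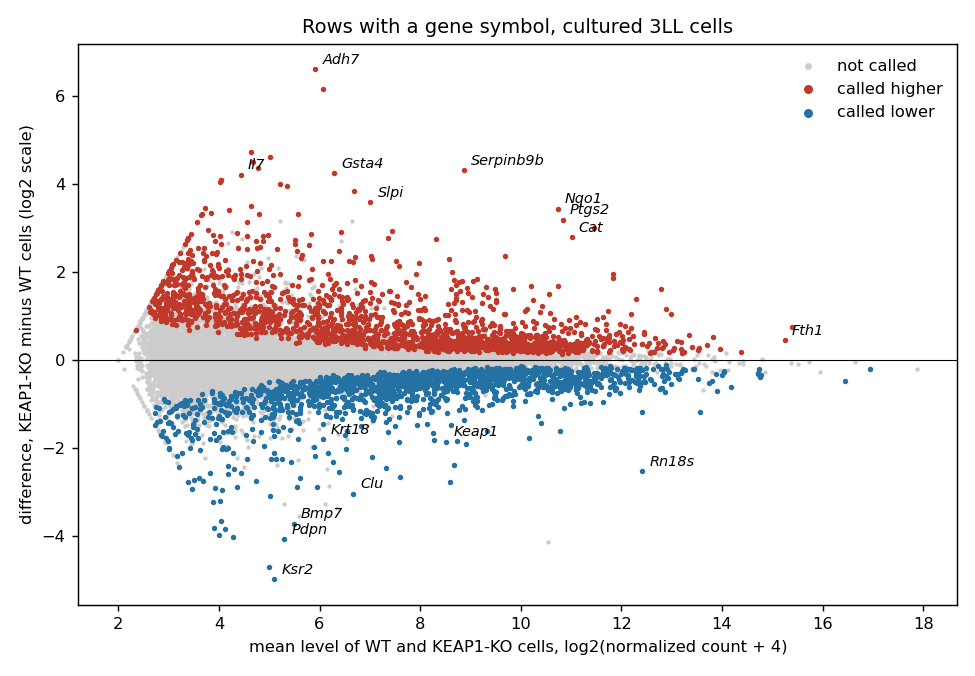
Each point is a tested row with a gene symbol: the horizontal axis is its mean level over WT and KEAP1-KO cells and the vertical axis its difference, KEAP1-KO minus WT, both on the log2(normalized count + 4) scale. Called rows (adjusted p below 0.05) are red when higher and blue when lower, and the rises reach further than the falls, with Adh7 at 6.60 and Ksr2 at -4.98.

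Genes of glutathione synthesis were higher in KEAP1-KO cells. Of 16 tested rows on the list of cystine import, glutathione synthesis and use, 7 (43.8%) rose and 2 fell. Slc7a11, the cystine-glutamate exchanger xCT, had 295, 245, 255 and 298 normalized counts in WT cells and 823, 859, 884 and 874 in KEAP1-KO cells, with no overlap (1.64 ± 0.07, adjusted p = 9.2e-09). Gclc and Gclm, the catalytic and modifier subunits of glutamate-cysteine ligase, rose by 1.23 ± 0.05 and 2.21 ± 0.26. Gclm was the more variable of the pair, at 84.2 to 160 in WT cells and 414 to 613 in KEAP1-KO cells. The next enzyme of synthesis, Gss, rose by 0.39 ± 0.08 and glutathione reductase, Gsr, by 0.98 ± 0.05. Abcc4, an efflux pump, rose by 1.29 ± 0.14. The falls were in Chac1 (-1.0 ± 0.08), which degrades glutathione, and in Slc3a2 (-0.14 ± 0.04), the heavy chain that partners xCT. The Slc3a2 call did not hold without the trend in the fit (adjusted p = 0.326) or in 6 of the 8 fits that leave out 1 library.

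Glutathione S-transferases, which join glutathione to electrophiles, had 11 of 18 tested rows higher and 1 lower. Of the 11, Gsta1, Gsta2, Gsta3 and Mgst1 passed the filter only through KEAP1-KO cells, and of the other 14 tested rows 7 rose. Alpha-class rows were low or at 0 in WT cells. Gsta4, for an enzyme of lipid aldehyde clearance, had 18.2, 8.63, 17.3 and 12.9 normalized counts in WT cells and 329, 326, 346 and 341 in KEAP1-KO cells, a 23.5-fold higher mean (4.25 ± 0.20, adjusted p = 1.9e-08). Gsta2 was at 0 in every WT library and at 69.7, 41.1, 72.6 and 79.7 in KEAP1-KO cells. Gsta1 was at 0 in 3 WT libraries and 4.56 in the other, against 111 to 150 in KEAP1-KO cells. Gsta1, Gsta2 and Gm3776 lie near each other on chromosome 9 and are alike in sequence, so how reads divide among their rows is uncertain. Microsomal Mgst1 rose from 1.07 to 2.28 normalized counts up to 106 to 130 (4.50 ± 0.21). The mu-class Gstm1 and Gstm2 were already present in WT cells and rose by 1.68 ± 0.06 and 2.29 ± 0.08, and Gstp1, one of the promoters printed above, by 1.29 ± 0.24. Mgst3 went the other way (-0.93 ± 0.10).

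The thioredoxin list was divided, with 9 of 23 tested rows higher (39.1%), 6 lower (26.1%) and a median of -0.02. Cat, catalase, had 824, 769, 780 and 751 normalized counts in WT cells and 5067, 5436, 5373 and 5777 in KEAP1-KO cells, 6.93-fold more (2.79 ± 0.05, adjusted p = 9.5e-13). Srxn1, the sulfiredoxin that repairs peroxiredoxins, went from 1798 to 2006 up to 6571 to 7521 (1.94 ± 0.06). Txnrd1, cytosolic thioredoxin reductase, rose by 1.16 ± 0.05, Prdx1 by 1.06 ± 0.09 and Prdx6 by 1.49 ± 0.09. Osgin1, an oxidative stress-induced growth inhibitor, rose 6.94-fold (2.76 ± 0.08). The falls were smaller and included Txn1 (-0.49 ± 0.08), the thioredoxin protein itself, the mitochondrial Txnrd2 (-0.89 ± 0.06) and the sestrin gene Sesn1 (-0.62 ± 0.08).

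**Figure D2:**
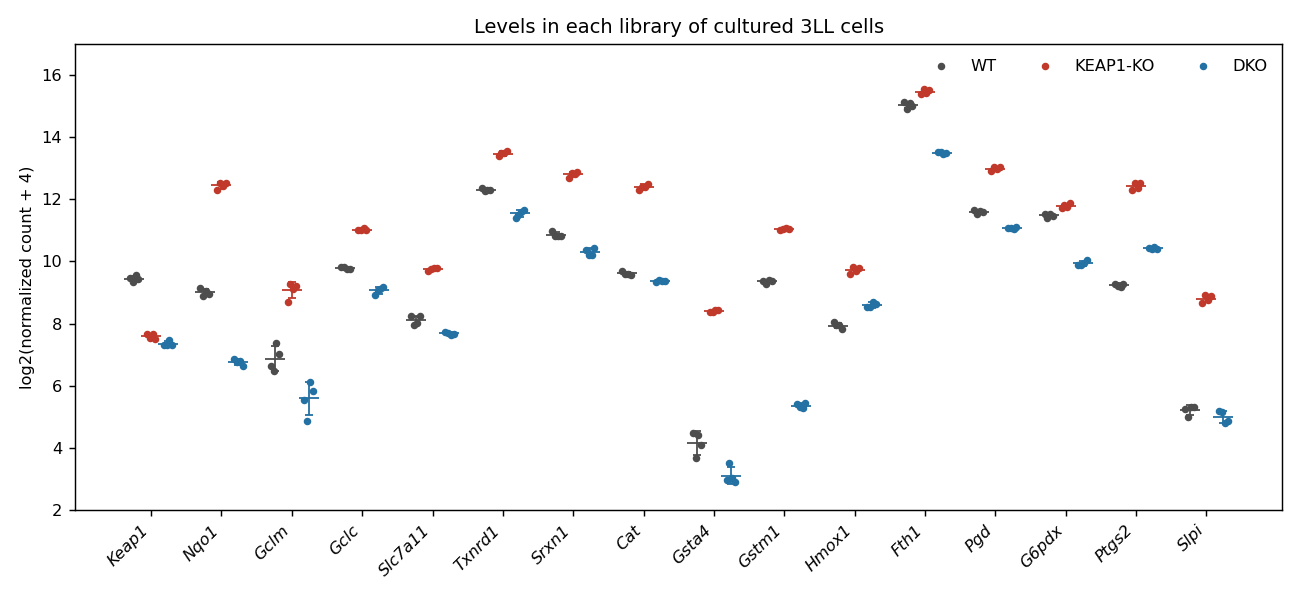
Levels of 16 genes in each of the 12 cultured-cell libraries on the log2(normalized count + 4) scale, with points for libraries, a dash for the group mean and bars for the SD (n = 4). KEAP1-KO libraries (red) lie above WT libraries (grey) for every gene shown except Keap1, and DKO libraries (blue) lie below KEAP1-KO libraries for each.

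Reductases and dehydrogenases held the row with the largest rise. Of 26 tested rows 10 rose and 3 fell. A set of 3 rows, Aldh3a1 among them, passed the filter only through KEAP1-KO cells and held 2 of the rises, and of the other 23 tested rows 8 rose. Adh7, a retinol and medium-chain alcohol dehydrogenase, had 2.28, 1.08, 2.17 and 3.22 normalized counts in WT cells and 533, 640, 598 and 603 in KEAP1-KO cells (6.60 ± 0.16, adjusted p = 7.2e-11). Aldh3a1, an aldehyde dehydrogenase, went from 1.08 to 5.36 up to 147 to 167 (4.62 ± 0.23). Nqo1, the quinone reductase used most often as a readout of NRF2, had 563, 474, 529 and 491 in WT cells and 5073, 5943, 5541 and 5901 in KEAP1-KO cells, 10.9-fold more (3.44 ± 0.07, adjusted p = 1.4e-11). Ptgr1, which reduces leukotriene and prostaglandin metabolites, rose by 1.52 ± 0.08. The paralogue Nqo2 fell by 0.91 on this scale (SE 0.06).

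In NADPH supply, 5 of 16 tested rows rose (31.2%) and 3 fell. Pgd and Taldo1, of the pentose phosphate pathway, rose by 1.39 ± 0.04 and 1.67 ± 0.06, and malic enzyme, Me1, by 1.75 ± 0.23. G6pdx, the first enzyme of that pathway, rose less (0.31 ± 0.05), from 2717 to 2966 normalized counts in WT cells to 3345 to 3728 in KEAP1-KO cells, without overlap. Aldh1l2, the mitochondrial folate enzyme, fell (-1.43 ± 0.04). Among iron and heme genes, 5 of 15 tested rows rose and 1 fell, and Slc11a1, 1 of the rises, passed the filter only through KEAP1-KO cells. Hmox1, heme oxygenase 1, had 259, 242, 242 and 223 normalized counts in WT cells and 764, 895, 827 and 887 in KEAP1-KO cells (1.79 ± 0.07). Blvrb, a biliverdin reductase, rose by 2.37 ± 0.07, and Slc11a1, a divalent metal transporter best known from macrophages, by 2.26 ± 0.29 from a low level. Fth1, the ferritin heavy chain and among the most abundant rows, rose by 0.45 ± 0.05, and Tfrc, the transferrin receptor, by 0.83 ± 0.07. The ferroptosis list had 1 rise, Acsl4 (0.58 ± 0.05), and 1 fall, Gch1 (-1.28 ± 0.20), of 7 tested. Each is 14.3%, near the 12.7% higher and 11.5% lower over all rows with a symbol.

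Of 23 tested rows of serine synthesis and ATF4-regulated genes 13 fell (56.5%) and 5 rose, with a median of -0.27. Trib3, a pseudokinase induced by ATF4, had 1026, 859, 910 and 967 normalized counts in WT cells and 426, 470, 430 and 512 in KEAP1-KO cells (-1.03 ± 0.07, adjusted p = 4.7e-07). Psat1, Psph, Phgdh and Shmt2, which make serine and glycine, fell by 0.66, 0.83, 0.44 and 0.66, respectively. Psat1 ranged from 8226 to 9655 in WT cells and from 5152 to 5812 in KEAP1-KO cells. Atf4 itself differed by -0.19 ± 0.04. The members that rose included the stress factors Ddit3 (0.80 ± 0.08) and Atf3 (2.36 ± 0.09) and the neutral amino acid and glycine transporters Slc1a4 (0.58 ± 0.05) and Slc6a9 (0.44 ± 0.05), so the list did not move as 1 block.

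Of 33 tested proteasome rows 17 rose (51.5%) and 0 fell by limma, where 21 were higher and 0 lower at an unadjusted p under 0.05. The called rises were between 0.22 and 0.74, and all 33 rows ranged from -1.16 to 1.07. Psmd12, a regulatory lid subunit, had 1217, 1051, 1239 and 1091 normalized counts in WT cells and 1752, 1948, 1930 and 2070 in KEAP1-KO cells (0.74 ± 0.06). Psmb3 of the catalytic core rose by 0.73 ± 0.07, as did Psmd1 of the base (0.73 ± 0.05). The heat shock and endoplasmic reticulum list was divided, with 7 of 21 tested rows higher (33.3%), among them the mitochondrial chaperonin gene Hspd1 (0.51 ± 0.04), and 5 lower (23.8%), among them the protein disulfide isomerase gene Pdia4 (-0.61 ± 0.04). In glycolysis and hypoxia, 9 of 25 tested rows rose (36.0%) and 1 fell. Slc2a1, the glucose transporter GLUT1, rose by 0.80 ± 0.06, Hk2 by 0.56 ± 0.05 and the peptide hormone gene Adm by 2.06 ± 0.13, whereas Pdk1 fell (-0.77 ± 0.11). In lipid synthesis 0 of 18 tested rows rose and 3 fell by limma (0 and 6 at an unadjusted p under 0.05), namely the sterol synthesis genes Hmgcs1 (-0.31 ± 0.05) and Idi1 (-0.44 ± 0.08) and the desaturase gene Fads2 (-0.45 ± 0.14). The Fads2 call was lost in 7 of the 8 fits that leave out 1 library.

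Cell cycle genes were lower where they changed. Of 29 tested rows 15 fell (51.7%) and 0 rose by limma (18 and 0 at an unadjusted p under 0.05), with a median of -0.28 and the largest fall at -0.71. Ccnb1, cyclin B1, had 4087, 3425, 3574 and 3388 normalized counts in WT cells and 1920, 2341, 2254 and 2323 in KEAP1-KO cells (-0.71 ± 0.07, adjusted p = 1.6e-05). Pcna, the replication clamp, fell by 0.64 and E2f1, a G1/S transcription factor, by 0.63. Other members of like level did not pass, among them the mitotic kinase gene Plk1 (-0.06 ± 0.04) and the replication helicase gene Mcm2 (0.07 ± 0.04, called higher under quantile normalization at 0.10). Cdkn1a, which encodes the cyclin-dependent kinase inhibitor p21, rose in the same cells from 438, 415, 421 and 423 to 1100, 1318, 1214 and 1327 (1.53 ± 0.06, adjusted p = 7e-09). It was 1 of 4 rises among 15 tested p53-regulated rows, where Gdf15 (-0.25) did not pass and Eda2r fell (-1.73 ± 0.22). No cell counts or cycle measurements were analysed here.

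Of 21 tested rows of the MAPK and AP-1 list, 9 rose (42.9%) and 5 fell (23.8%). Among the rises, the AP-1 subunit genes Jun and Junb were higher by 0.93 ± 0.06 and 1.36 ± 0.06, Ier3 by 1.63 ± 0.07, and the phosphatase genes Dusp1 and Dusp4 by 2.54 ± 0.44 and 1.10 ± 0.06. The falls were in Dusp6 (-1.36 ± 0.29), Etv5 (-0.93 ± 0.06), Spred1 (-0.55 ± 0.06), Spry4 (-0.26 ± 0.05) and Ksr2, most of which are known as targets or feedback regulators of ERK signalling. Ksr2, a scaffold of the RAF-MEK-ERK cascade, showed the largest fall of any called row with a symbol whose groups did not overlap. It had 197, 192, 178 and 185 normalized counts in WT cells and 0.929, 4.37, 0.943 and 2.69 in KEAP1-KO cells (-4.98 ± 0.21, adjusted p = 1.1e-08). In the growth factor list 8 of 30 tested rows rose (26.7%) and 3 fell. The rises held 3 ligands of the EGF receptor, Areg (1.72 ± 0.09), Hbegf (1.49 ± 0.07) and Ereg (1.11 ± 0.07). Areg had 245, 206, 244 and 214 normalized counts in WT cells and 685, 830, 740 and 764 in KEAP1-KO cells. The Notch target Hes1 rose by 2.55 ± 0.23.

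Of 22 tested rows of cytokines, chemokines and prostaglandin synthesis, 8 rose, 1 fell and 13 did not pass. Of these rows 6, Il7 among them, passed the filter only through KEAP1-KO cells and held 2 of the rises, and of the other 16 tested rows 6 rose. Ptgs2, the inducible cyclooxygenase COX-2, had 620, 587, 582 and 616 normalized counts in WT cells and 5070, 5891, 5335 and 5827 in KEAP1-KO cells, 9.2-fold more (3.19 ± 0.05, adjusted p = 7e-13). Ptges, the prostaglandin E synthase that works downstream, rose by 0.44 ± 0.04, and the constitutive Ptgs1 fell (-1.25 ± 0.22). Il7, a lymphocyte growth cytokine, was at 0 to 2.17 in WT cells and at 80.8, 98.7, 93.4 and 84.2 in KEAP1-KO cells (4.21 ± 0.20). The chemokine genes Ccl7 (0.58 ± 0.08) and Cxcl1 (1.43 ± 0.25) rose, and Ccl2 (0.41) did not pass.

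Of 27 protease inhibitor rows 16 were tested, and 13 of them rose and 1 fell, though many of the clade B serpins are near-identical copies. The filter bears on that count. Serpinb1b, Serpinb9c, Serpinb9e and Serpinb9g passed it only through KEAP1-KO cells, and of the other 12 tested rows 9 rose. Without a filter 15 of 26 rows rose, and with a mean of at least 25 normalized counts 8 of 11. Slpi, the secretory leukocyte protease inhibitor, had 34.2, 28.1, 35.8 and 35.4 normalized counts in WT cells and 400, 478, 425 and 472 in KEAP1-KO cells, 13.3-fold more (3.59 ± 0.12). Serpinb9b rose from 96.6 to 106 up to 1857 to 2265, 20.6-fold (4.31 ± 0.06), and Serpinb9, for the granzyme B inhibitor, by 0.61 ± 0.10. Serpinb9e was at 0 to 1.08 in WT cells and 17.5 to 27.3 in KEAP1-KO cells (2.51 ± 0.24). Cst6 and Cstb, both cystatins, rose by 1.81 ± 0.14 and 0.78 ± 0.06. Il7, Slpi and Serpinb9e were picked out by the study with these cells in view, so their rises are not independent evidence.

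Of 41 interferon rows 24 did not pass the filter on low values, and of the 17 tested 3 rose and 2 fell, beside 12.7% and 11.5% over all rows with a symbol. Of the 17, 4 passed the filter only through KEAP1-KO cells, among them Ifih1 and Igtp, and of the other 13 tested rows 1 rose. Trim30a (1.94 ± 0.23), Ifih1 (1.37 ± 0.33) and Igtp (1.24 ± 0.30) rose, each from a low level, though the Igtp call was lost with a pseudocount of 0.4 (adjusted p = 0.1) and by limma-voom on recovered reads (adjusted p = 0.0695). The falls were in Irf9 (-0.62 ± 0.13), of the interferon-activated transcription complex, and Socs1 (-0.34 ± 0.09), a feedback inhibitor of cytokine signalling, whose call was lost in 5 of the 8 fits that leave out 1 library (adjusted p up to 0.0731). In antigen presentation 5 of 14 tested rows rose (35.7%) and 2 fell (14.3%). B2m, the light chain of MHC class I, had 5563 to 6140 normalized counts in WT cells and 4129 to 4564 in KEAP1-KO cells (-0.37 ± 0.05), and the immunoproteasome subunit gene Psmb9 fell (-1.98 ± 0.42). The peptide transporter gene Tap2 rose by 0.99 ± 0.13, from 85.2 to 113 normalized counts in WT cells to 186 to 207, and the class II chaperone gene H2-DMa by 1.39 ± 0.25 from a low level. Of 13 tested immune ligand genes 4 rose (30.8%) and 0 fell by limma (6 and 0 at an unadjusted p under 0.05). Cd274, which encodes PD-L1, had 10.3, 15.1, 17.3 and 23.6 in WT cells and 38.1, 43.7, 33.9 and 49.2 in KEAP1-KO cells (1.16 ± 0.23, adjusted p = 0.00407). Lgals9, for galectin-9, rose by 1.14 ± 0.08. Cd68, for a lysosomal protein used as a macrophage marker, was called higher, as 1 of 6 tested leukocyte markers (2 without KEAP1-KO replicate 1), at 103 to 116 against 7.98 to 28.1 in WT cells (2.38 ± 0.24). The summed level of the leukocyte list was 198 to 257 normalized counts in WT cells and 320 to 355 in KEAP1-KO cells, and without Cd68 it was 190 to 229 and 216 to 240.

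**Figure D3:**
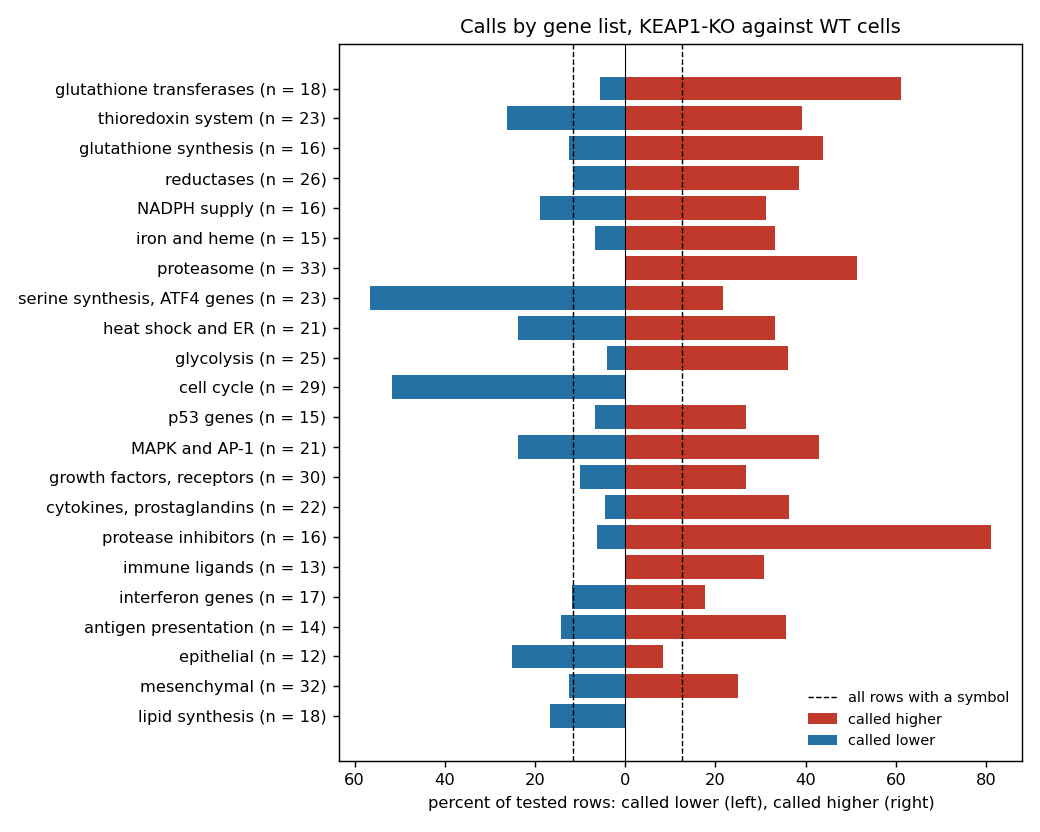
For 22 of the gene lists, bars give the percent of tested rows called higher (red, to the right) or lower (blue, to the left) in KEAP1-KO cells, with the number of tested rows in brackets, and dashed lines mark the shares over all rows with a symbol (12.7% higher, 11.5% lower). Rows tested only because they are high in KEAP1-KO cells add to some bars on the right, with 4 of the 13 rises of protease inhibitors, 4 of the 11 of glutathione transferases, 2 of the 10 of reductases, 2 of the 8 of cytokines and prostaglandins, 2 of the 3 of interferon genes and 1 of the 5 of iron and heme, and serine synthesis with ATF4 genes (56.5%) and the cell cycle (51.7%) reach furthest left of the lists shown.

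The largest falls were in genes of several kinds. After Ksr2 came Eya2, a transcriptional cofactor and phosphatase (-4.70 ± 0.25), which went from 147 to 175 normalized counts in WT cells to 1.79 to 2.83. Pdpn, the membrane glycoprotein podoplanin, had 163, 159, 154 and 151 in WT cells and 11.1, 1.75, 7.54 and 4.48 in KEAP1-KO cells (-4.06 ± 0.25). The homeobox gene Nkx2-2 was at 20.6 to 36.5 in WT cells and listed at 0 in all 4 KEAP1-KO libraries, as was Elovl7, of fatty acid elongation. Bmp7, a bone morphogenetic protein, had 161, 154, 150 and 168 in WT cells and 7.43, 6.99, 9.43 and 9.85 in KEAP1-KO cells, 18.8-fold less (-3.71 ± 0.13). Clu, the extracellular chaperone clusterin, was 8.99-fold lower (-3.03 ± 0.12). Others among the largest falls were Fam131b, Dennd11, Lrp4, Trpm6, Pls1, Galnt15 and 1700006J14Rik, with differences between -4.01 and -2.96. Among epithelial genes 3 of 12 tested rows fell and 1 rose. Krt18 went from 103 to 134 down to 26.9 to 34.9 normalized counts (-1.79 ± 0.15), and Krt8 from 4419 to 5128 down to 3205 to 3500 (-0.49 ± 0.05). Of 32 tested mesenchymal and matrix rows 8 rose and 4 fell, with a median of -0.49, and at an unadjusted p under 0.05 there were 8 higher and 12 lower. The called falls numbered 7 when symbol rows alone were tested and 7 with the replicate number as a block. Ccn1, a matricellular protein gene, rose by 1.81 ± 0.06 and Col6a3 by 1.34 ± 0.14, while Sparc fell (-1.84 ± 0.09), as did Snai2, a repressor of epithelial genes (-1.03 ± 0.06).

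Among the rises, Gm20658 came next after Adh7, at 9.12, 3.24, 1.08 and 4.29 normalized counts in WT cells, 592, 548, 544 and 582 in KEAP1-KO cells and 0 to 1.05 in DKO cells (6.16 ± 0.24, adjusted p = 4.8e-09). GENCODE M21 (GRCm38) annotates it as antisense, on the minus strand of chr12:116102769-116138648, inside the span of Vipr2, a neuropeptide receptor gene on the plus strand. How reads divide between overlapping genes is uncertain. The 15 largest rises also included, beside the genes above, Calr3 (3.84 ± 0.15), a calreticulin paralogue, Dtna (4.01 ± 0.26), of the dystrobrevin family, and Map7d2 (4.04 ± 0.15), a microtubule-associated protein gene that was at 0 in all WT libraries and at 60.3 to 66.3 in KEAP1-KO cells. Casp12 (3.96 ± 0.47) and Adam10 (4.08 ± 0.94) were less precise. The Adam10 row was listed at 0 in the 4 WT libraries and in 3 DKO libraries and at 37.7 to 130 in the others, and Nfe2l1 (3.46 ± 0.72) was listed at 0 in the 4 WT libraries and in 2 DKO libraries. Such complete zeros can be failed estimates. When recovered whole reads were fitted by limma-voom, the differences were 6.88 and 6.20 and neither passed (adjusted p = 0.119 and 0.128). The Adam10 and Nfe2l1 rows also passed the filter on low values only through KEAP1-KO cells.

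DKO cells were compared with both groups in the same fit, and since these comparisons use the same KEAP1-KO or WT libraries they are given only side by side. Over rows with a symbol, 7.64% were called lower and 6.81% higher in DKO than in KEAP1-KO cells, and 13.0% higher and 13.2% lower in DKO than in WT cells. Nqo1 was at 96.5 to 112 normalized counts in DKO cells, below both other groups, and DKO minus KEAP1-KO was -5.68 (adjusted p = 1.1e-13). Adh7 was at 8.41 to 14.5 in DKO cells, above WT cells (adjusted p = 5.3e-05). Gsta4 was at 3.42 to 7.36, Slpi at 24.1 to 32.2 and Il7 at 2.56 to 4.89 in DKO cells. Gstm1 was at 34.6 to 40.1, lower than the 624 to 677 of WT cells. Ptgs2 (1342 to 1412) and Cdkn1a (752 to 844) lay between WT and KEAP1-KO cells. Of the 18 glutathione transferase rows 11 were called lower in DKO than in KEAP1-KO cells, and of the 23 ATF4 and serine rows 14 were called higher. The 11 include Gsta1, Gsta2, Gsta3 and Mgst1, which passed the filter only through KEAP1-KO cells, as did Il7. The low DKO counts of these genes are therefore no independent evidence. Trib3 was at 1522 to 1605 in DKO cells, above WT cells. In the proteasome list 5 of 33 rows were lower in DKO than in KEAP1-KO cells, and the median difference of DKO from WT cells was 0.25, beside 0.32 for KEAP1-KO. In the cell cycle list the corresponding medians were -0.33 and -0.28. Serpinb9b (1114 to 1190), Map7d2 (50.8 to 73.4), Areg (539 to 662) and Hbegf (386 to 458) were also well above their WT levels in DKO cells. Ksr2 (6.83 to 12.6), Pdpn (6.84 to 8.54) and Krt18 (7.33 to 12) were low in DKO cells, Bmp7 (51.8 to 69.4) and Clu (133 to 163) lay between WT and KEAP1-KO cells, and Snai2 (838 to 952) exceeded both other groups.

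**Figure D4:**
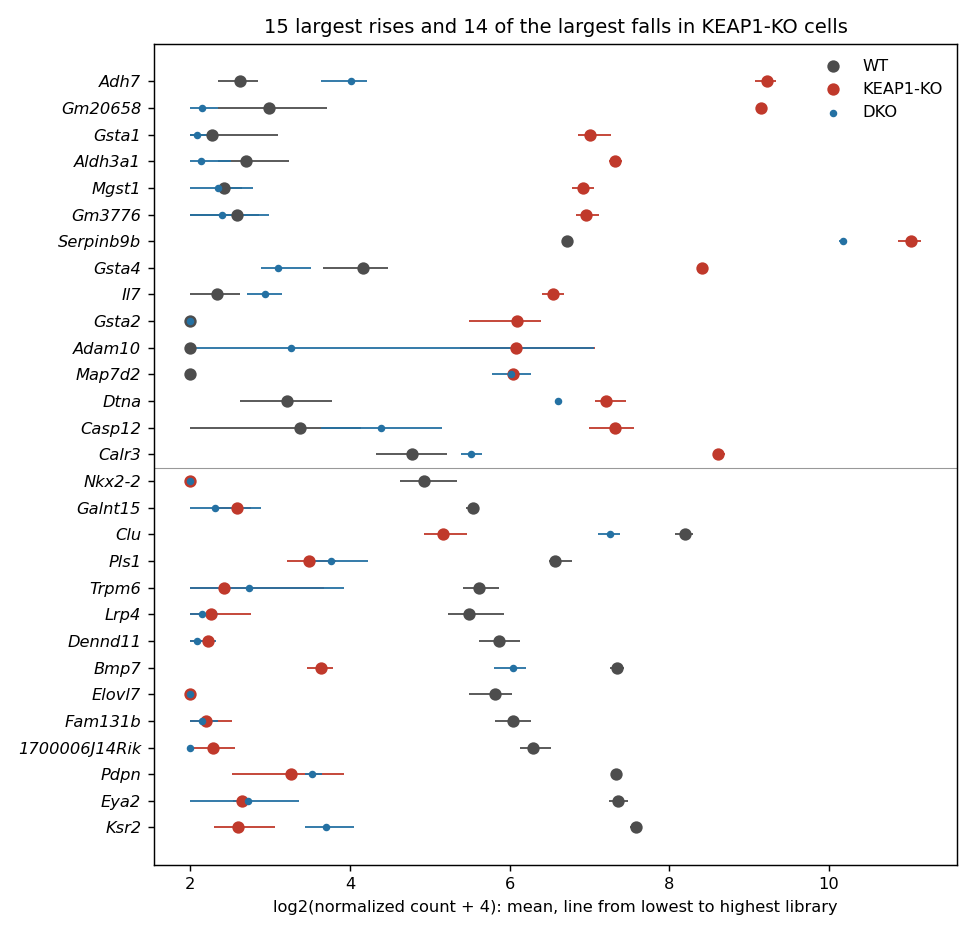
The 15 largest rises and 14 of the 15 largest falls in KEAP1-KO cells among called rows with a symbol whose groups did not overlap, as group means on the log2(normalized count + 4) scale with lines from the lowest to the highest library (n = 4). DKO cells (small blue points) lie near WT cells for the detoxification genes Gsta2 and Mgst1, and near KEAP1-KO cells for Serpinb9b, Map7d2, Ksr2 and Pdpn. Gsta2 and Mgst1 passed the filter on low values only through KEAP1-KO cells.

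Tumors of both genotypes in Experiment A grew in the same mice, but the labels do not say that a tumor's number marks its mouse, so the fit did not pair them. These tumors share no library with the cultured cells, and whether tumors and cultures came from the same KEAP1-KO line is not stated in the labels. Bulk tumors also hold host cells, where fewer cells of a type and less RNA per cell cannot be told apart. Of 1648 rows called higher in the cells and tested in the tumors, 624 (37.9%) were called higher in KEAP1-KO tumors too, where 7.73% of all tested rows with a symbol were called higher, and 82 (4.98%) were called lower. Those 624 are 55.0% of the 1134 rows called higher in tumors and tested in cells. Of 1522 rows called lower in the cells, 685 (45%) were called lower in the tumors, against 12.8% of all tested rows with a symbol, and 23 (1.51%) higher. The 685 make up 54.1% of the 1266 rows called lower in tumors and tested in cells. Adh7 (6.21), Nqo1 (5.55), Gsta4 (4.75), Il7 (4.37), Slpi (4.06), Cat (2.86), Ksr2 (-4.52) and Bmp7 (-3.13) had tumor differences of the same sign as in culture. The proteasome list had 14 of 33 rows higher in the tumors and the cell cycle list 10 of 28 lower. Cdkn1a (0.18, adjusted p = 0.532), Hbegf (-0.04, adjusted p = 0.929) and Jun (0.11, adjusted p = 0.661) rose in culture and did not pass the test in the tumors. Ccl7 was called lower in the tumors (-2.70), as were Igtp (-3.15), Ifih1 (-2.11), Trim30a (-1.74), Cd274 (-1.36), H2-DMa (-1.50), Tap2 (-0.62), Lgals9 (-0.61, adjusted p = 0.0963 with the tumor number as a block), Col6a3 (-1.77) and Hmox1 (-0.80). Of 17 tested interferon rows 12 were lower in KEAP1-KO tumors and 0 higher by limma (0 higher at an unadjusted p under 0.05). Of 6 leukocyte marker rows tested in the cells, 3 were lower in these tumors and 0 higher. Ptprc, not tested in the cells, differed by -2.32 in the tumors (adjusted p = 2.4e-08 by limma). The part of host cell number in these falls was not tested. The difference between cells and tumors was not tested.

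**Figure D5:**
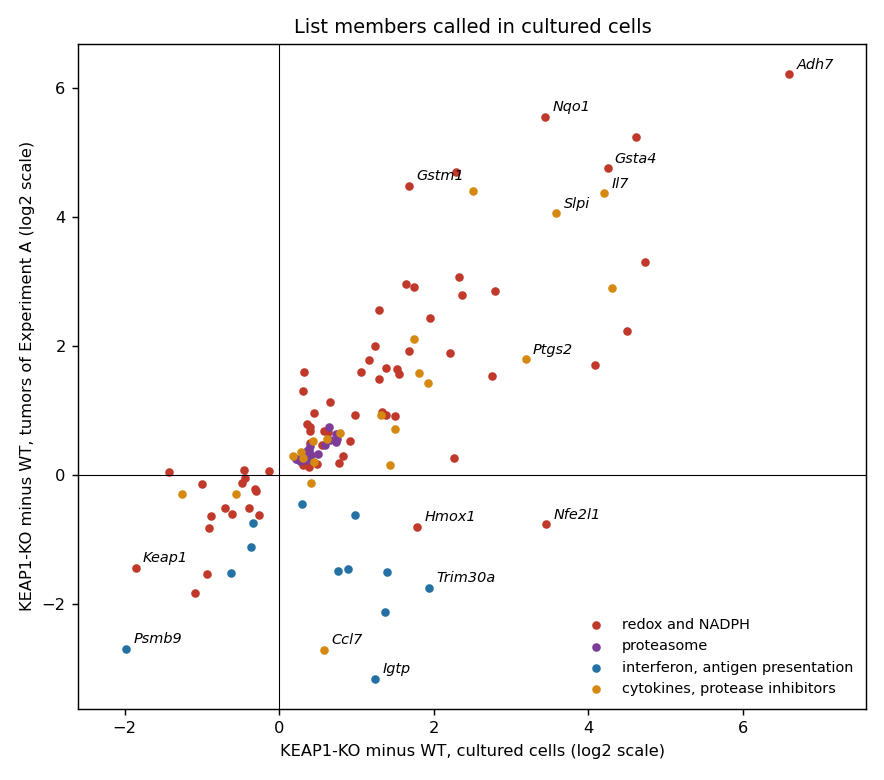
List members called in cultured cells, with the KEAP1-KO minus WT difference in cells on the horizontal axis and in tumors of Experiment A on the vertical axis, both on the log2(normalized count + 4) scale, colored by list. Redox genes run from Keap1 at the lower left (-1.86 in cells, -1.43 in tumors) to Adh7 at the upper right (6.60 and 6.21), while interferon and antigen presentation genes such as Igtp lie below 0 in tumors.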

How the data were processed

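Total RNA was depleted of ribosomal RNA, made into directional libraries and sequenced in pairs, and per the labels and methods the authors quantified transcripts with Salmon on GENCODE mouse transcripts and processed them in iDEP. The deposited table holds 1 log2 value per row and library, log2(normalized count + 4), as recovered from the values. How transcript estimates were summed into rows is not given in the sources used here. A symbol row (8420 with a gene ID, the others with a transcript ID) was therefore read as the signal listed for that gene, not as an isoform. In GENCODE M21 the transcript IDs were mostly typed as retained intron (4187 rows), processed transcript (2120), protein-coding (1821) or nonsense-mediated decay (1620). Whether such a row holds the total of its gene is not known. The labels' extraction text names livers of mice and disagrees with the cell titles, which were followed.

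The 29744 rows that reached 5 normalized counts in 4 or more cell libraries were fitted with limma 3.58.1 in R 4.3.3 (1 mean per cell group, empirical Bayes with a trend, Benjamini-Hochberg over all rows, threshold 0.05). The 16 tumors were fitted likewise. No count model was run on these log2 values. No value column was left unmapped. The members and gene lists were chosen with earlier results of these data known. Named genes are Keap1, Nfe2l2, Nqo1, Gsta4, members of the lists, and the 15 largest rises and 15 largest falls among called rows whose groups did not overlap. A row of those falls is not reported here. Rn18s, Alb and Ptprc were named as checks. A ratio of mean normalized counts is given only where every library of both groups had at least 5. The normalized counts were whole reads divided by 1 factor per library (100% of low values whole within 0.02 reads), and totals of recovered reads set the depth (5808967 to 7524297 per WT or KEAP1-KO library). Alternatives were limma-voom on recovered reads, another pseudocount, filters, scalings, fits, call rules and each library left out.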

Additional observations from a re-analysis of the deposited data

Results flagged for a closer look

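In 33 of 453 groups of 4 libraries of the named rows, 1 library stood apart from the other 3 by Dixon's test. The usual rate of about 1 group in 20 assumes continuous values. Where 3 libraries were at 0, any read in the remaining library was flagged. The 453 also hold groups of 4 equal values, which could not be flagged, so the 33 are not set against that rate. Values here are on the log2(normalized count + 4) scale, on which 2.0 is a count of 0. WT replicate 1 stood above the rest of its group in Gsta1 (3.10 against 2.0), Mgst1 (2.65), Srxn1 (10.97), Mgst3 (9.0), Tfrc (11.75) and B2m (12.59) and below it in Gstm2 (7.33). WT replicate 2 was low in Prdx6 (9.53) and high in Pls1 (6.78), and WT replicate 3 was high in Mafg (4.26), Ptprc (2.35) and Alb (2.35). WT replicate 4 was low in Col6a3 (6.07) and high in Sparc (9.70) and Gsta3 (2.34). KEAP1-KO replicate 1 was low in Rn18s (9.82 against 11.43 to 11.69), Gstm2 (9.61), Plk1 (10.92) and Dennd11 (2.0) and high in Adm (6.95) and Trim30a (5.73). KEAP1-KO replicate 2 was high in Trpm6 (3.67) and replicate 3 low in H2-DMa (4.45). In DKO cells, replicate 1 was high in Dennd11 (2.32), replicate 2 was low in Gstp1 (6.90 against 7.97 to 8.03) and Socs1 (7.59) and high in Krt8 (11.39), and replicate 3 was low in Txn1 (11.40) and Tfrc (11.33) and high in Keap1 (7.47) and Gsta1 (2.34). DKO replicate 4 held the only signal of its group for Adam10 (7.05) and Aldh3a1 (2.51).

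For 11 named rows every KEAP1-KO library lay on one side of every WT library in culture and on the opposite side in the tumors of Experiment A, and the difference between cells and tumors was not tested. Rows higher in KEAP1-KO cells and lower in KEAP1-KO tumors were Igtp (1.24 in cells, -3.15 in tumors), Ccl7 (0.58, -2.70), Ifih1 (1.37, -2.11), Col6a3 (1.34, -1.77), Trim30a (1.94, -1.74), H2-DMa (1.39, -1.50), Cd274 (1.16, -1.36), Tap2 (0.99, -0.62) and Cd68 (2.38, -0.38). Rn18s (-2.52, 1.92) and Spry4 (-0.26, 0.32) were lower in the cells and higher in the tumors. With the tumor number as a block, Cd68 and Rn18s lost their tumor calls (adjusted p = 0.055 and 0.0568 by limma).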

How the results depend on the processing

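Of 4599 called rows in KEAP1-KO against WT cells, 1702 with a symbol were higher, 1541 lower, and 1309 were called in the same direction in the tumors of Experiment A. A call rule with a difference of at least 1 left 1357, 599, 292 and 405 rows. A rule of unadjusted p under 0.01 with a difference above 2 left 266, 129, 57 and 104. Fitting gene rows only, chosen after seeing the data, tested fewer rows and gave 1987, 988, 896 and 646. Leaving out 1 library gave 3798 to 4177, 1461 to 1659, 1317 to 1423 and 1201 to 1254. With the replicate number as a block the counts were 4063, 1536, 1372 and 1238, but same-numbered WT and KEAP1-KO libraries shared only a number (correlations of their deviations from -0.0319 to 0.00506), not every library correlating best with its own number. A block of tumor numbers, also chosen after seeing the data, gave 1218 shared calls, with correlations from -0.00905 to 0.0316 between same-numbered tumors. Limma-voom on recovered reads gave 4120, 1496, 1519 and 1258, and reads thinned to 5808967 per library 4372, 1649, 1484 and 1282, both chosen after seeing the data. The other alternatives, a pseudocount of 0.4, filters, scalings, a fit of 8 libraries, a fit without a trend and symbol rows only, kept each of the 4 counts within 1.5 times. The median difference of all rows stayed between -0.017 and 0.032. Call rules apart, 0 of 3013 recomputed values of 149 named rows changed sign with a call, and 39 values of 10 rows changed their call. These were Slc3a2, Fads2, Socs1, Mcm2, Adam10 and Nfe2l1, given above in part, with Atf4, Spry4, Serpinb1b and Igtp. Atf4 and Spry4 lost their calls without a trend (adjusted p = 0.165 and 0.0755) and Serpinb1b under limma-voom on recovered reads (0.0579). Igtp lost its call with a pseudocount of 0.4 or by limma-voom (0.1 and 0.0695). Fads2 also lost its call under limma-voom, thinning, quantile normalization, rescaling without the 20 highest rows, the replicate block, no filter or no trend. Slc3a2 also lost it under quantile normalization or median centring, and Socs1 without a trend or with the block. Mcm2 was also called higher after that rescaling (0.0238). A filter on a mean of 25 normalized counts, which tests fewer rows, took the called rises of protease inhibitors from 13 to 8 and the called falls from 1 to 2. Those falls were also 2 without WT replicate 1, with the replicate block, in the fit of 8 libraries and with symbol rows only. The called falls of lipid synthesis went from 3 to 5 under quantile normalization. Without a trend the called rises of p53-regulated rows went from 4 to 2 (7 with symbol rows only) and the called falls of heat shock and endoplasmic reticulum rows from 5 to 3. The causes of these moves were not tested. At this depth 1 read is worth 0.874 to 1.14 normalized counts, so rows near 0 carry little information.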
